A study of Homo sapiens with 6 samples.

Results

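The transcription factors that hold carcinoma cells towards an epithelial or a mesenchymal state were examined in HCT116 cells, a long-established line from a human colorectal carcinoma, sorted into fractions with and without CD133, the surface glycoprotein that PROM1 encodes. The set held 10 genes, taken by name and all measured, out of 18404 genes on the array: 6 repressors of the epithelial programme (ZEB1, ZEB2, SNAI1, SNAI2, TWIST1 and TWIST2) and 4 factors that maintain it (GRHL1, GRHL2, OVOL1 and OVOL2). Both groups were untreated fractions of the same line, CD133+ and CD133- cells, with 3 arrays each, numbered as repetitions 1 to 3. The labels name no genotype change, treatment or time, and do not state whether each repetition was a new culture or a new sort. P-values therefore reflect the spread among these arrays, part or all of which may be technical. Signals are log2 values after Robust Multichip Average (RMA) processing, and differences are CD133+ minus CD133- within a repetition.

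ZEB and SNAI proteins are zinc finger repressors that bind E-boxes in epithelial genes such as CDH1, and TWIST proteins are basic helix-loop-helix factors that act in the same transition. GRHL proteins activate epithelial junction genes, and OVOL proteins are zinc finger repressors of ZEB1 and other mesenchymal regulators. GRHL2 and ZEB1 are known to repress each other, and microRNAs of the miR-200 family target ZEB1 and ZEB2 transcripts while ZEB1 represses the genes of those microRNAs.

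The miR-200 family is shown because its seed sequences are what connects it to ZEB1 and ZEB2. Capitals mark the seed, bases 2 to 8 of the mature RNA. The sequences are from RefSeq (GRCh38.p14) and fall into 2 seed groups, with 3 members sharing AAUACUG and 2 sharing AACACUG.
hsa-miR-200b-3p: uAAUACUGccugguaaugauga
hsa-miR-200c-3p: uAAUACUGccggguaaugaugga
hsa-miR-429: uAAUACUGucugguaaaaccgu
hsa-miR-200a-3p: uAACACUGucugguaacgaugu
hsa-miR-141-3p: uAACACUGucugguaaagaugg

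The E-box bound by ZEB and SNAI proteins reads CACCTG, or CAGGTG on the other strand. RefSeq start sites (GRCh38.p14) with the 250 bases before them were searched on both strands. Windows were matched for 4 of the 10 factors, with ZEB1 holding 7 start sites. An E-box match was present in 2 of the 7 ZEB1 windows, 1 of them with 2 matches, and in 0 of the windows of ZEB2, TWIST2 and GRHL1. The targets EHF, VIM and FN1 also had no match. The window before the most upstream ZEB1 start and that of RAB25, a trafficking gene of the epithelial targets described further on, are printed with the E-box in capitals. In ZEB1 (chr10:31318167-31318416, plus strand) the match began at -57 from the start site, and in RAB25 (chr1:156060910-156061159, plus strand) at -41.
ZEB1: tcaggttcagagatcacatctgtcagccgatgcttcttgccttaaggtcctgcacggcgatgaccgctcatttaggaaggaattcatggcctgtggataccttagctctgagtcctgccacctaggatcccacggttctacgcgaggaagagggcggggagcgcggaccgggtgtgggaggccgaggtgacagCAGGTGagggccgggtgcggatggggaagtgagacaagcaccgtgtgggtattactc
RAB25: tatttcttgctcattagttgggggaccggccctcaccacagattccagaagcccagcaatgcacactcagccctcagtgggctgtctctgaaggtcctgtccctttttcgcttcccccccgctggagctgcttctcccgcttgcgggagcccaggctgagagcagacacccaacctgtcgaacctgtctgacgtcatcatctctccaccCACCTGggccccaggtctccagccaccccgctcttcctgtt

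CLDN7, a tight junction gene, had 4 E-box matches in 1 of its windows. A pair of them lay in the last 30 bases before that start site (chr17:7262479-7262508, minus strand), beginning at -20 and -9.
CLDN7: tacatatactCAGGTGcgcccCACCTGtcc

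An E-box match was present in 17.5% of all 35116 windows of this length, so a match is common and describes the letters only. CCGTTA, the element bound by OVOL proteins, was found in either orientation in 2.45% of all windows and in 1 of the ZEB1 windows, where it began at -203.

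The arrays were checked before the factors were compared. PROM1 was 2.77 higher on the log2 scale in CD133+ cells, 6.82-fold, and the groups did not overlap, so the sort and the labels matched. Array medians over the 28230 probe sets tested lay between 5.44 and 5.60. Of the markers of colorectal epithelium, EPCAM measured 10.82 to 11.19 and CDX2 6.92 to 7.21 over the 6 arrays, but VIL1, encoding the brush border protein villin, measured only 4.32 to 4.66. The mean level of 10 such markers spanned 8.18 to 8.28 in CD133+ and 8.09 to 8.32 in CD133- arrays. The mean was 4.16 to 4.28 against 4.15 to 4.39 for 10 fibroblast markers, 4.09 to 4.15 against 4.01 to 4.33 for 9 leukocyte markers and 4.54 to 4.71 against 4.56 to 4.69 for 10 endothelial markers. The ranges of the 2 fractions overlapped for each of the 4 lists. Of their members 0 passed limma's adjusted threshold, against 0.298% of all probe sets. At an unadjusted p under 0.05, against 11.3% of probe sets, stood 3 of 10 epithelial markers (1 higher and 2 lower) and 0 of the others. The 2 on the lower side were keratin genes, KRT18 with a difference of -0.48 (limma adjusted p = 0.0989) and KRT8 with -0.24 (0.336). Neither overlapped between fractions. KRT19, the other keratin gene of the list, had 0.04 (0.898) with overlapping fractions. COL1A1, a collagen gene of fibroblasts, reached 6.84 to 7.96 in this line, and PTPRC, which marks leukocytes, stayed at 2.28 to 2.45. In bulk RNA, fewer cells with a transcript and less of it per cell cannot be told apart.

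ZEB1 was the repressor that separated the fractions most, with a difference of -0.69. Of the epithelial factors GRHL2 had 0.49, OVOL1 0.24, GRHL1 0.11 and OVOL2 -0.0099, and the repressor TWIST1 had 0.22. None of the 10 factors passed the limma test with repetition as a block at an adjusted p under 0.05, a threshold passed by 0.298% of all probe sets (84 of 28230). At an unadjusted limma p under 0.05 stood 4 of the 10 (ZEB1, GRHL2, OVOL1 and TWIST1), against 11.3% of probe sets. Fitted with group as the only term, limma also called 0 of 10, against 0.00354% of probe sets (1 of 28230), with 2 at an unadjusted p under 0.05 (3.45% of probe sets). The 2 fractions did not overlap for the same 4 factors, 1 lower and 3 higher, against 7.95% of genes in either direction (4.52% lower and 3.43% higher). The sign was the same in every repetition for these 4 of 10, against 36.1% of genes, a share near the background.

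**Figure D1:**
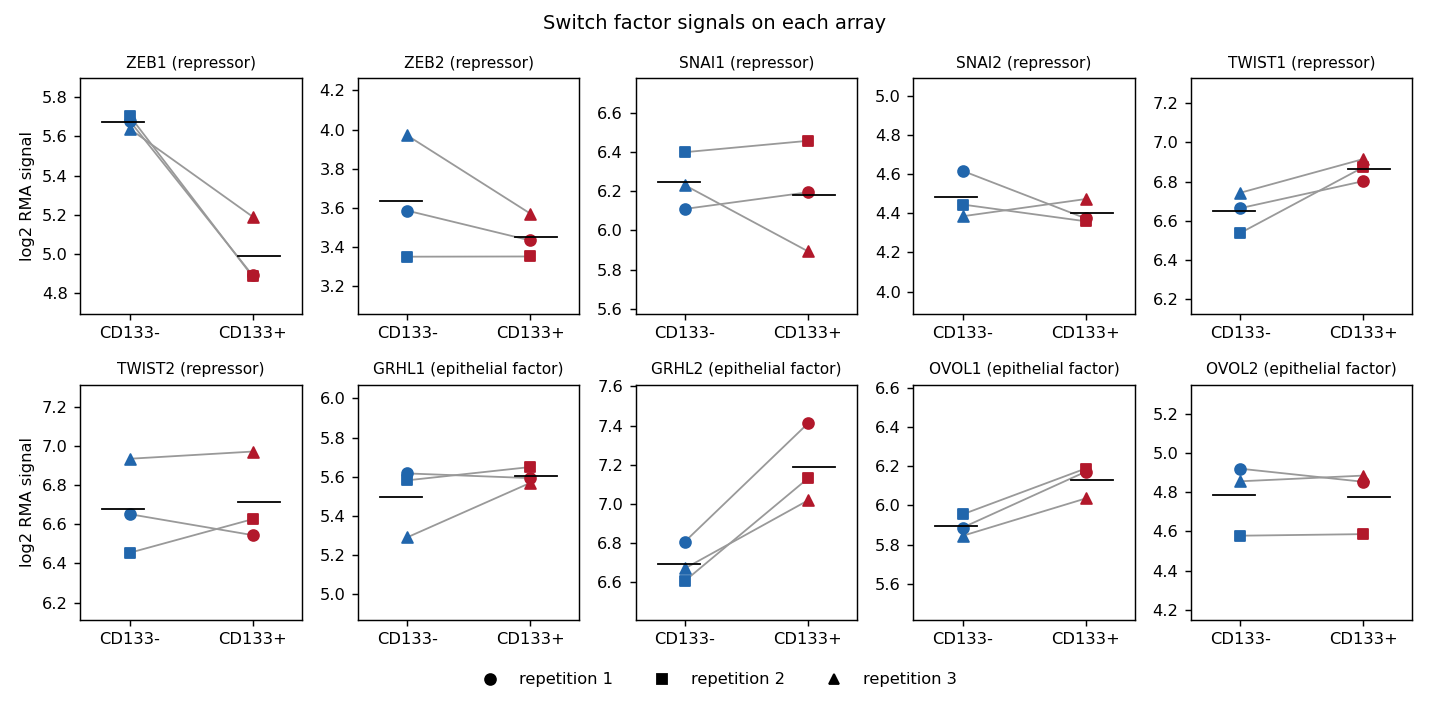
Log2 RMA signal of each switch factor (vertical axis, spanning the same width in every panel) in CD133- and CD133+ arrays, with lines joining arrays of a repetition, symbols giving the repetition and short bars the group means. For ZEB1 all 3 lines run down, for GRHL2, OVOL1 and TWIST1 all 3 run up, and the lines of the other 6 factors run in mixed directions.

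ZEB1, the repressor at the centre of the reciprocal loop with miR-200 and GRHL2, measured 4.89, 4.89 and 5.19 in CD133+ repetitions 1, 2 and 3, and 5.68, 5.71 and 5.64 in the CD133- arrays of the same numbers. All CD133+ arrays were below all CD133- arrays, and the CD133- values lay within 0.1 of each other. The signal was low: the CD133+ values lay below the array medians, which spanned 5.44 to 5.60, and the CD133- values just above them. The means were 4.99 ± 0.17 and 5.67 ± 0.034 (SD, n = 3 each). The difference was -0.69 (SE 0.10, 95% interval -0.93 to -0.44), or 1.61-fold lower, with limma adjusted p = 0.0798. It was -0.79, -0.82 and -0.45 within repetitions 1, 2 and 3, so repetition 3 had the smallest gap. An absolute difference at least that large was found for 0.663% of genes (122 of 18404), and the limma p ranked 144 of 28230 probe sets. Over the alternative settings the adjusted p ran from 0.0369, with a variance prior that follows signal intensity, to 0.346 with group as the only term. The exact two-sided permutation test of 3 against 3 arrays gave p = 0.1, the smallest it can give.

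ZEB2, the paralogue of ZEB1 and a target of the same microRNAs, measured 3.43, 3.35 and 3.57 in CD133+ and 3.59, 3.35 and 3.97 in CD133- repetitions 1 to 3. The groups overlapped, since repetition 2 gave the same level in both fractions and repetition 3 the widest gap. The difference was -0.18 (SE 0.10, 95% interval -0.43 to 0.06; limma adjusted p = 0.567). It became -0.076 without repetition 3, -0.28 without repetition 2 and -0.069 with both ZEB2 probe sets averaged. A second ZEB2 probe set, built on a single cDNA accession, read 2.06 to 2.21 on all arrays, with a difference of 0.05.

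SNAI1, encoding Snail, an early repressor of CDH1 in transitions, measured 6.19, 6.46 and 5.89 in CD133+ and 6.11, 6.40 and 6.23 in CD133- repetitions 1 to 3. The arrays were ordered by repetition more than by fraction, and the within-repetition differences were 0.08, 0.06 and -0.34. The mean difference of -0.06 (95% interval -0.33 to 0.20; limma adjusted p = 0.878) became 0.071 without repetition 3.

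SNAI2, encoding Slug, measured 4.37, 4.36 and 4.47 in CD133+ and 4.62, 4.44 and 4.38 in CD133- repetitions 1 to 3, below the array medians throughout. The groups overlapped, and the difference was -0.08 (95% interval -0.31 to 0.15; limma adjusted p = 0.809), which became 0.0012 without repetition 1.

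TWIST1 went against ZEB1. It measured 6.80, 6.87 and 6.92 in CD133+ and 6.66, 6.54 and 6.74 in CD133- repetitions 1 to 3. Every CD133+ array lay above every CD133- array, by a narrow margin. The difference was 0.22 (SE 0.085, 95% interval 0.01 to 0.42), or 1.16-fold higher, and missed the threshold (limma adjusted p = 0.419, 0.207 to 1.00 over the alternatives). TWIST2, its close paralogue, measured 6.54, 6.63 and 6.97 in CD133+ and 6.65, 6.45 and 6.93 in CD133- repetitions 1 to 3. The repetition 3 arrays were highest in both fractions, and the difference was 0.03 (95% interval -0.18 to 0.25; limma adjusted p = 0.929).

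GRHL2, an activator of CDH1 and of claudin genes, had the largest difference of the epithelial factors. It measured 7.41, 7.13 and 7.02 in CD133+ and 6.81, 6.61 and 6.67 in CD133- repetitions 1 to 3. Every CD133+ array exceeded every CD133- array, with means of 7.19 ± 0.20 and 6.70 ± 0.10 (SD, n = 3 each). The difference was 0.49 (SE 0.089, 95% interval 0.28 to 0.70), or 1.41-fold higher, with limma adjusted p = 0.121. Within repetitions 1, 2 and 3 it was 0.60, 0.52 and 0.35, and as for ZEB1 it was smallest in repetition 3. A difference of at least that size was found for 1.65% of genes (304 of 18404). The adjusted p was 0.0271 when probe sets below the median mean were left out, a filter that removes ZEB1, 0.0404 with the intensity-dependent prior and 0.999 with group as the only term. By the exact permutation test (two-sided) p was 0.1, again the smallest possible.

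GRHL1, the paralogue that can form dimers with GRHL2, measured 5.59, 5.65 and 5.57 in CD133+ and 5.62, 5.58 and 5.29 in CD133- repetitions 1 to 3. Only the CD133- array of repetition 3 stood apart, on the low side. The difference was 0.11 (95% interval -0.12 to 0.33, limma adjusted p = 0.731), and it fell to 0.02 without repetition 3.

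OVOL1, a zinc finger repressor active in epithelia, measured 6.17, 6.19 and 6.03 in CD133+ and 5.89, 5.95 and 5.84 in CD133- repetitions 1 to 3. The groups did not overlap, and the gaps of 0.28, 0.23 and 0.19 were alike in size. The difference was 0.24 (SE 0.080, 95% interval 0.04 to 0.43), or 1.18-fold higher, with limma adjusted p = 0.354 (0.149 to 1.00 over the alternatives).

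OVOL2, which represses ZEB1 in other epithelia, measured 4.85, 4.59 and 4.88 in CD133+ and 4.92, 4.58 and 4.86 in CD133- repetitions 1 to 3. Repetition 2 was low in both fractions, and within each repetition the arrays agreed to within 0.07. The difference was -0.0099 (95% interval -0.20 to 0.18; limma adjusted p = 0.979).

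**Figure D2:**
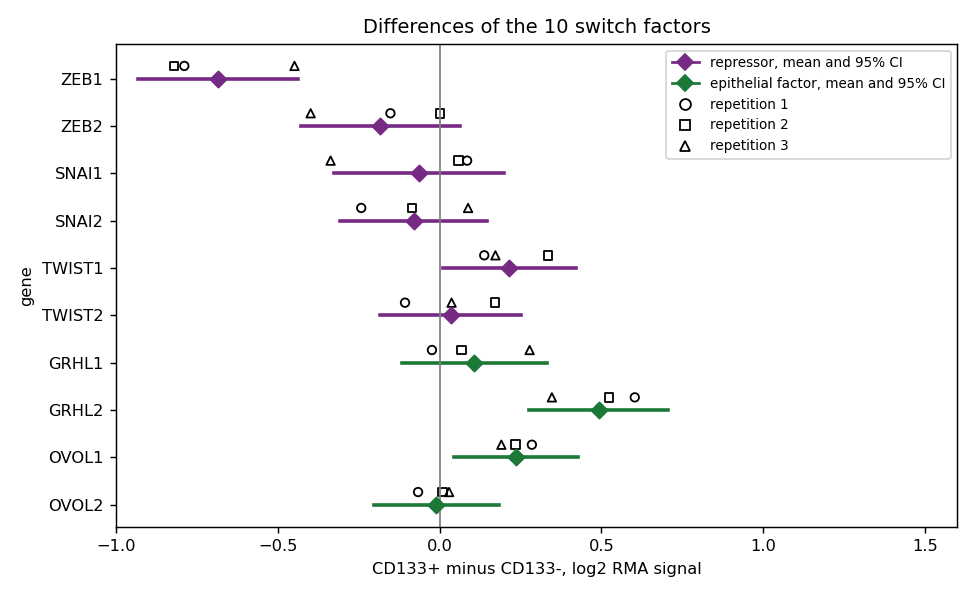
CD133+ minus CD133- difference in log2 RMA signal (horizontal axis) for each switch factor, with the limma estimate and its 95% interval from the fit with repetition as a block and the 3 within-repetition differences as open symbols. The intervals of ZEB1 (-0.93 to -0.44), TWIST1 (0.01 to 0.42), GRHL2 (0.28 to 0.70) and OVOL1 (0.04 to 0.43) lie off 0, and those of the other factors include it; the intervals are not adjusted for the number of probe sets.

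Split by sum of squares over the 6 arrays, fraction accounted for 91.8% of the variation of ZEB1, 80.6% of OVOL1, 77.9% of GRHL2 and 71.3% of TWIST1. For OVOL2 and TWIST2 repetition accounted for 97.8% and 90.4%, and for SNAI1 and ZEB2 for 70.1% and 66.3%. Summed over all genes, repetition took 69.8% and fraction 17.0%, a pooled sum in which genes of large variance weigh most. The 4 factors with most of their variation by fraction were those whose fractions did not overlap, so the split is no separate result. The others followed the repetition or neither, such as SNAI2, with a residual of 59.1%.

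Set against each other, the repressors had a median difference of -0.07, with 2 of 6 above 0, and the epithelial factors one of 0.17, with 3 of 4 above 0; the median over all genes was -0.0064. Within repetitions 1, 2 and 3 the repressor median was -0.13, 0.03 and -0.15 and the epithelial median 0.13, 0.15 and 0.23. The epithelial median exceeded the repressor median in each repetition, by 0.26, 0.12 and 0.38. The repressors did not lie on one side as a class, since ZEB1 at -0.69 and TWIST1 at 0.22 lay on opposite sides and the other 4 had intervals that include 0. The opposition was widest between GRHL2 and ZEB1, whose differences were 1.39, 1.34 and 0.80 apart in repetitions 1, 2 and 3. No test is given for these summaries, because the genes were chosen with results of these data known.

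**Figure D3:**
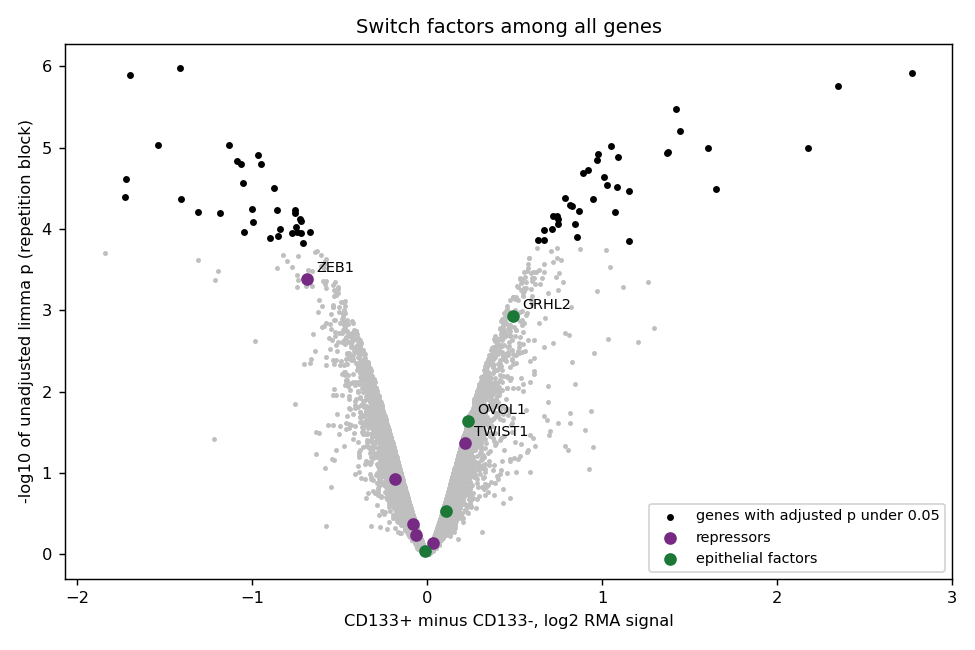
Each point is a gene, placed by its CD133+ minus CD133- difference in log2 RMA signal (horizontal axis) and by the -log10 of its unadjusted limma p with repetition as a block (vertical axis); black points passed the adjusted threshold. ZEB1 on the left arm and GRHL2 on the right arm lie below the black points, at unadjusted limma p of 0.00041 and 0.0012. OVOL1 and TWIST1 lie lower on the right arm, and the other 6 factors near the base.

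None of the microRNA genes listed with these factors was called. Of 18 listed symbols 12 were measured, through probe sets on the hairpins, which need not follow the mature microRNAs. Their median difference was 0.02, with 8 of 12 above 0. Limma called 0, against 0.298% of all probe sets, with 0 at an unadjusted p under 0.05, against 11.3%. With so few genes, the absence of calls at the adjusted threshold says little. The MIR200C hairpin read 4.34, 4.08 and 4.68 in CD133+ and 4.46, 4.06 and 4.52 in CD133- repetitions 1 to 3, and MIR200B read 4.89, 4.67 and 4.93 against 4.93, 4.79 and 5.09. For both hairpins the fractions overlapped and every value lay below the array medians. The differences of MIR200C, MIR141 and MIR200A were 0.02, 0.03 and 0.07, and those of MIR200B and MIR429 were -0.10 and -0.11. By the smallest p, the listed genes were MIR34B, of a p53-induced family that targets SNAI1, at -0.18 with non-overlapping fractions (limma adjusted p = 0.465) and MIR21 at 0.22 (0.471). MIR21 differed far more between repetitions, reading 6.20 to 6.25 on the arrays of repetition 2 and 8.72 to 9.52 on the others.

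Epithelial genes listed as targets or companions of these factors lay mostly above 0. Of 30 listed, 26 were measured and 23 had differences above 0, with a median of 0.19 against -0.0064 over all genes. Within repetitions 1, 2 and 3, 21, 23 and 16 of 26 were higher. EHF, an epithelial ETS factor, rose by 2.35 (SE 0.14; limma adjusted p = 0.0123) and MAL2, of apical transport, rose by 1.05 (SE 0.084; 0.0203), so 2 of 26 rose and 0 fell, beside 0.166% of all probe sets called higher and 0.131% called lower. EHF also passed with group as the only term (0.0302), and MAL2 did not (0.226). At an unadjusted p under 0.05 stood 7 of 26, all higher, against 11.3% of probe sets in either direction. The list was drawn up with earlier results of these data known, so these counts are description and no independent finding.

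The genes in the rest of this comparison were picked after their values were seen. CDH1, encoding E-cadherin and the classical target of ZEB1 and SNAI1, measured 8.94, 8.28 and 8.72 in CD133+ and 8.56, 7.54 and 8.63 in CD133- repetitions 1 to 3. It was higher in each repetition, but the groups overlapped because repetition 2 was low in both fractions. Its difference was 0.40 (SE 0.13; limma adjusted p = 0.334). ST14, the membrane protease matriptase, had 0.55 (adjusted p = 0.0921), the tight junction gene CLDN7 0.48 (0.143) and RAB25 0.53 (0.151), and in all 3 the fractions did not overlap. EPCAM, an epithelial adhesion molecule, had 0.22 (0.523). Some targets were on the other side: the desmosome gene DSP had -0.20, the epithelial splicing regulator ESRP2 -0.08 and GRHL3, a paralogue of GRHL2, -0.04, with limma adjusted p values of 0.495, 0.757 and 0.918.

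An E-box match was present before at least 1 start site of 10 of the 17 epithelial targets with a window (58.8%), against 20.6% of all 27305 genes with a window and 3 of 18 mesenchymal targets (16.7%). The lists were drawn from genes known as targets of these factors, so the share is no independent finding. Of the 10, which included CLDN7 and RAB25, 9 were measured, with differences from -0.20 to 0.53 and a median of 0.10. That median was below the 0.19 of the whole list. Of the 9, 7 lay above 0, beside 8817 of all 18404 genes. Limma called 0 of them, against 0.298% of probe sets, with 2 at an unadjusted p under 0.05, against 11.3%.

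Mesenchymal genes lay mostly below 0, with 20 of 27 measured members below 0 and a median of -0.14. This list too was drawn up with earlier results of these data known, so its counts are description only. Within repetitions 1, 2 and 3, 6, 10 and 10 of 27 were higher. In the fit with the block 4 fell and 0 rose, against 0.131% of probe sets called lower and 0.166% called higher, and 10 stood at an unadjusted p under 0.05 (9 lower and 1 higher), against 11.3%. VIM, the intermediate filament vimentin, fell by 1.05 (SE 0.13; limma adjusted p = 0.0418), FN1, fibronectin, fell by 0.96 (SE 0.080; 0.0203), the matricellular gene CCN1 fell by 1.00 (SE 0.11; 0.0381) and THBS1, thrombospondin 1, fell by 1.31 (SE 0.14; 0.0338). With group as the only term limma called 0 of 27, with 8 at an unadjusted p under 0.05 (3.45% of probe sets), and without repetition 3 limma called 0 of the 133 listed target and partner genes (24 at an unadjusted p under 0.05). Other genes of the list, chosen after their values were seen, were not called. N-cadherin (CDH2) had 0.08, CDH11 -0.09 and the collagen gene COL1A2 0.01 (limma adjusted p = 0.780, 0.756 and 0.977). The matrix gene SPARC had 0.68 with non-overlapping groups (0.123). CCN2, the lowest of the list, had -1.31 with non-overlapping groups (0.0637). FSTL1 had -0.51 and COL6A1 -0.47 (0.145 and 0.0976), both lower in each repetition. Of all 27 measured genes, 7 lay above 0.

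**Figure D4:**
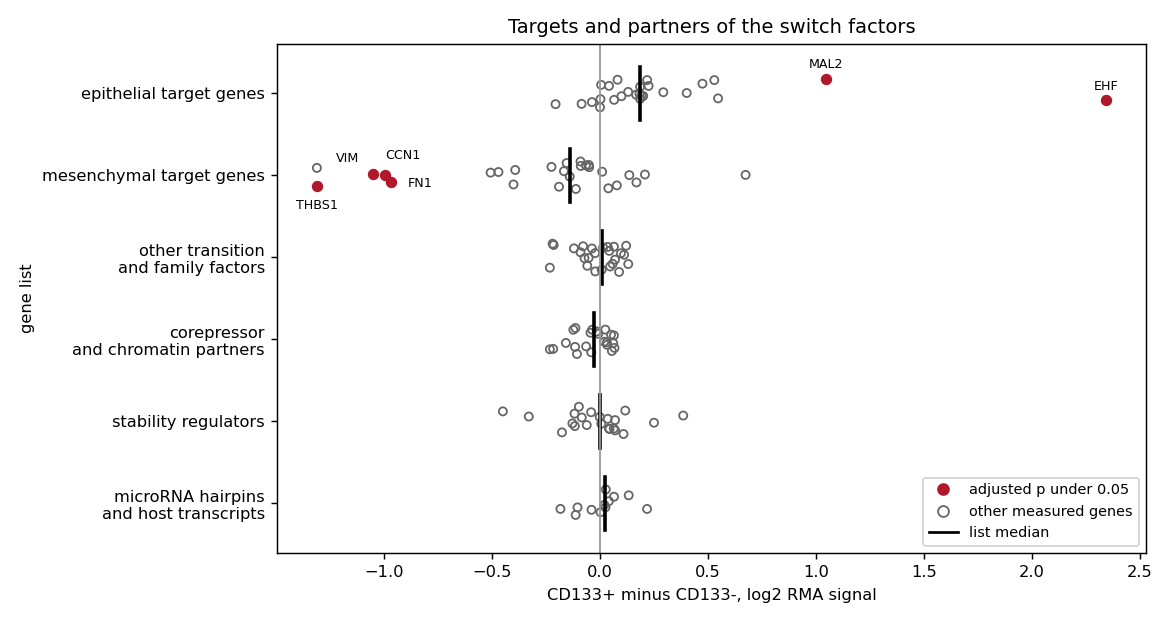
CD133+ minus CD133- difference in log2 RMA signal (horizontal axis) of each measured gene in 6 lists of targets and partners; filled points passed limma's adjusted threshold with repetition as a block and vertical bars are list medians. The epithelial median lies at 0.19 and the mesenchymal median at -0.14, and the other 4 lists have medians between -0.024 and 0.024 with no gene called.

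No gene listed for the proteins that work with the switch factors was called, and the arrays measured RNA only. Among other transition factors and family members 25 of 29 were measured, with 13 above 0 and a median of 0.0091. The 2 of smallest p were SOX9, a crypt progenitor factor, at -0.23 and SOX4, a mediator of TGF-beta signalling, at -0.22 (limma adjusted p = 0.386 and 0.403). Corepressors and chromatin enzymes recruited by ZEB and SNAI proteins had 9 of 22 above 0 and a median of -0.024. EZH2, the histone methyltransferase of Polycomb complexes, had -0.23 and AJUBA, a LIM protein that binds SNAI1, had -0.22 (0.410 and 0.421). Kinases, ubiquitin ligases and deubiquitinases that set the stability of SNAI and ZEB proteins had 12 of 22 above 0 and a median of 0.0036. AXIN2, which controls GSK3B towards SNAI1, had -0.45 and ATM, a kinase that stabilises ZEB1, had -0.33 (0.149 and 0.234). In these 3 lists limma called 0 genes, beside 0.298% of all probe sets. At an unadjusted p under 0.05 stood 2 of 25, 2 of 22 and 4 of 22, beside 11.3% of all probe sets.

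Genes with array profiles most like those of ZEB1 and GRHL2 were sought by Pearson correlation over the 6 arrays, among the genes whose mean was above the median of all genes. The arrays share the split into fractions, so any gene that separates them scores high, and no test is given. Most like ZEB1 were SEC14L1 (r = 0.994), the stress-inducible gene GADD45B (0.992), HEBP2 (0.984), VIM (0.979) and CUEDC1 (0.978), and most opposite were PROCR, the endothelial protein C receptor (-0.976), USP3 (-0.969) and the epithelial target ST14 (-0.964). VIM and ST14 were thus the only genes of the target lists named there. Most like GRHL2 were RABGAP1 (0.997), CLDND1 (0.991), DDX60L (0.984), the pseudokinase gene TRIB1 (0.982) and ACY1 (0.970), and most opposite were the small GTPase gene RHOB (-0.990), SAMD4A (-0.988) and C11orf68 (-0.986). Of these 16 genes VIM fell, and CLDND1, of the claudin domain family, and DDX60L, a helicase-like gene, rose by 0.74 and 0.92 (limma adjusted p = 0.0352 and 0.0222).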

How the data were processed

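RNA of the sorted HCT116 cells was isolated on columns and labelled with a whole-transcript kit for Affymetrix arrays, per the labels' protocols. The design text names a U133 array, but the row identifiers and the annotation used for gene names are those of a whole-transcript Gene ST array. The authors deposited log2 signals per probe set after RMA, per the labels' design text. The values (1.09 to 13.7) show the log2 scale. No software version for RMA is given in the sources used here. Of 32321 rows, a leading block of 4091 without gene was left out as controls. Of the 28230 tested, 19158 had 1 gene symbol, 1388 several (naming no gene) and 7684 none in the platform annotation; each of 18404 genes was represented by its brightest probe set. All 6 array columns were used. The number of arrays limits the precision.

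Differences were fitted over all probe sets with limma 3.58.1 in R 4.3.3 (lmFit, eBayes), with repetition as a block, two-sided, and Benjamini-Hochberg adjustment at 0.05. Same-numbered arrays deviated together from their group means (r = 0.447, 0.616 and 0.589 across probe sets), and 6 of 6 arrays correlated best with their own number; the pairing rests on these data, since the labels name no shared culture or day. The fit was tested on simulated data. Intervals are 95%. Alternatives were group as the only term, each repetition left out, 2 normalizations, a dim filter, an intensity trend, averaged probe sets and the leading rows kept.

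The genes, lists and tests were chosen with earlier results of these data known. Named were the 10 factors, listed genes past the threshold with or without the block, else the 2 of smallest p in a list, the genes of most similar profile (5) and most opposite profile (3) to ZEB1 and GRHL2, and genes said to be picked later. Sequences came from RefSeq.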

Additional observations from a re-analysis of the deposited data

How the results depend on the processing

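ZEB1, ZEB2, TWIST1, GRHL1, GRHL2 and OVOL1 kept their direction under every alternative run, where ZEB2 and ZEB1 have no value under the dim filter. Small differences changed sign when a repetition was left out, SNAI1 running from -0.14 to 0.071, SNAI2 from -0.16 to 0.0012, TWIST2 from -0.035 to 0.10 and OVOL2 from -0.029 to 0.019, and OVOL2 was 0.0067 after repeated quantile normalization. Of the 10 factors limma called 2 (ZEB1 and GRHL2) with the intensity trend and 1 (GRHL2, of 6 left) with the dim filter. Without the replicate block, limma called 1 of 28230 probe sets in place of 84, and 1 of the 133 listed target and partner genes in place of 6. Leaving out a repetition, both arrays of a pair at once, gave 0 to 43 probe sets and 0 to 5 listed genes; the 0, without repetition 3, stood beside 2276 probe sets and 24 listed genes at an unadjusted p under 0.05. The dim filter gave 403 and 14, the trend 347 and 13, and the leading rows kept 0 and 0 (3051 and 23 at an unadjusted p under 0.05). The dim filter left 14115 probe sets to test. Why these counts moved was not tested. The gap between the epithelial and repressor medians, 0.24, ran from 0.16 to 0.28. Mean signals of ZEB1, ZEB2, SNAI2, OVOL2 and the measured hairpins other than MIR21 lay below the median probe set mean of 5.53. With 3 pairs of arrays and such low signals, small differences may have been missed.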
